A study of Bos taurus with 8 samples.

Results

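The lungs of 4 healthy newborn Holstein calves give the baseline transcriptome described here. Each calf was naturally conceived, was labelled healthy and was slaughtered 4 days after birth, and the total RNA of its lungs was hybridised to 1 array with the dye Cy3. A gene entered the description when a non-control probe matched to its symbol was marked well above background on all 4 arrays, and its brightest such probe stood for it. Of the 11054 genes with a symbol among the probes, 9611 (86.9%) met that rule. The series holds 8 arrays, and the other 4 come from cloned calves that entered no step. The replicates are separate animals, and all 4 arrays lay on 1 slide, so the calves do not differ by slide. The region of lung sampled, the RNA integrity and the sex of the calves are unstated in the sources used here.

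In a newborn the lung has to clear fluid from its air spaces, keep the alveoli open and begin to meet inhaled microbes. Alveolar type II cells do much of this by making surfactant, a film of phospholipid and surfactant proteins, while thin alveolar type I cells lie against capillaries and form the surface for gas exchange. Secretory and ciliated cells line the airways, resident macrophages clear spent surfactant and particles, and elastic fibres laid down by mesenchymal cells let the tissue recoil.

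Levels are log2 processed signal minus the array's 75th percentile, so 0 is a bright probe on that array and each step of 1 is a 2-fold change in signal. Brightness depends on the probe as well as on the transcript. Ranks and percentiles below therefore describe probes, and they do not order genes by transcript number. Spread is given as the range, the highest calf minus the lowest, and a gene is called variable where that range is 2 or more, a 4-fold difference. Of all genes, 86.9% were detected, that is well above background on all 4 arrays. Of those detected, 1.32% were variable. Each count by list below is to be read beside these shares. In whole lung RNA, fewer cells of a type and less RNA per cell cannot be told apart. Between 80.4% and 83.5% of spots per array were well above background, none was saturated, and the correlation between calves across genes lay between 0.986 and 0.990, where genes are not independent replicates. Of the 1443 genes left out, 825 were well above background on 0 of the 4 arrays. DDX3Y and USP9Y, which lie on the Y chromosome, were among these 825.

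The probes of the 6 lung markers set for the tissue were all well above background in every calf, with the surfactant proteins among the brightest. SFTPC, surfactant protein C, had the brightest probe of all 9611 genes, at 7.65, 7.89, 7.74 and 7.70 in calves 1 to 4 (mean 7.74 ± 0.10, SD, n = 4). SFTPA1, the collectin surfactant protein A, read 6.11, 6.17, 6.35 and 6.26. SFTPB, the surfactant protein without which newborns cannot keep alveoli open, read 4.53, 4.45, 4.47 and 4.65. On these probes the 3 epithelial genes varied by 0.24 at most between calves. The second brightest probe had a range of 0.63 for SFTPA1 and 0.51 for SFTPB, and SFTPC had 1 probe. PECAM1, an adhesion protein of endothelial cells, read 3.76, 3.79, 3.60 and 3.59, a range of 0.20. The remaining pair spread more widely on the brightest probe. SCGB1A1, the secretoglobin of airway club cells, read 2.18, 3.48, 2.58 and 3.91, with calves 2 and 4 above calves 1 and 3. COL1A1, a fibrillar collagen chain of fibroblasts, read 2.38, 1.84, 3.17 and 2.32, with calf 3 highest. The second brightest probe had a range of 1.92 for SCGB1A1 but 0.43 for COL1A1, where calf 3 was again highest and calf 1 was lowest.

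All 10 type II cell markers that matched a probe were detected in every calf, where 86.9% of all genes were, and their median brightness lay at the 96.8th percentile of all genes. None was variable, where 1.32% of all genes were. Beside the surfactant proteins, CTSH, a protease that processes them, averaged 6.24 ± 0.18, and ABCA3, the lipid pump of the lamellar body, averaged 4.79 ± 0.13. SFTPD, the second lung collectin, averaged 4.60 ± 0.22. SFTA2, a small secreted protein of these cells, read 2.44 in calf 1 against 3.34, 3.24 and 3.34 in the others, which made it the widest of the list at 0.90. LAMP3, a lamellar body membrane protein, stayed within 0.14. The phosphate carrier SLC34A2 had a dim probe, at -2.45 ± 0.14.

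All 14 type I markers were detected, where 86.9% of all genes were, at a median percentile of 58.0. The brightest probes were those of CAV1, the coat protein of caveolae (5.78 ± 0.25), AGER, the receptor for advanced glycation end products (5.10 ± 0.16), AQP5, a water channel (4.06 ± 0.11), and HOPX, a transcriptional cofactor (3.83 ± 0.26). RTKN2 was the only variable member, where 1.32% of all genes were variable. It read -2.90, -4.37, -2.33 and -2.69, so calf 2 was lowest. PDPN, podoplanin, was also lowest in calf 2, at 0.05 against 1.25, 0.96 and 1.18, and lymphatic endothelium carries it as well.

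Airway markers were dimmer and spread further. Of 8 secretory cell markers, 7 were detected, at a median percentile of 50.3 and a median range of 1.38, against 0.34 for all genes. TFF3, a trefoil peptide of mucus, averaged 4.42 ± 0.46. BPIFB1, a secreted airway defence protein, read 0.47, 1.36, 0.46 and 2.49. Its relative BPIFA1 read -1.50, -1.88, -2.44 and 0.70. Both were highest in calf 4. PIGR, which carries IgA across epithelium, also read highest in calf 4, at 0.37 against -0.02, -0.02 and -0.06. AGR2, a folding factor of mucous cells, was well above background in calves 3 and 4 only.

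All 10 ciliated cell markers were detected, at a median percentile of 29.1. FOXJ1, the master regulator of motile cilia, averaged -3.34 ± 0.27. DNAI1 and DNAH9, dynein chains of the ciliary axoneme, averaged -4.17 ± 0.16 and -3.85 ± 0.50. TPPP3 and TUBA1A, which other cells also express, were far brighter, at 4.80 ± 0.41 and 5.56 ± 0.10. Of 9 basal cell markers, 8 were detected. KRT15 was the brightest at 0.80 ± 0.22, KRT5 was variable at -3.95, -4.74, -5.35 and -3.17, and TP63, the defining transcription factor of basal cells, was well above background in 0 of the 4 calves. Neuroendocrine markers were detected in 4 of 8 cases. INSM1 averaged 0.60 ± 0.09 and SYP -1.18 ± 0.07, whereas CALCA and SCG2 were well above background on 0 arrays, and GRP and CHGA on 2 each.

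All 15 endothelial markers were detected, where 86.9% of all genes were, at a median percentile of 80.8. None was variable, where 1.32% of all genes were. CLDN5, the tight junction protein of endothelium, averaged 6.12 ± 0.08, and EGFL7, a secreted angiogenic factor, averaged 5.92 ± 0.07. CA4, the carbonic anhydrase of lung capillaries, was the widest of the list, at 4.74, 4.19, 2.98 and 3.91, with calf 3 lowest. FLT1, a receptor for VEGFA, was also lowest in calf 3, at -4.23 against -2.58, -2.64 and -2.89. LYVE1, a receptor of lymphatic endothelium and some macrophages, averaged 3.77 ± 0.08, while PROX1, the lymphatic master regulator, averaged -4.30 ± 0.25.

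All 15 fibroblast and matrix genes were detected, where 86.9% of all genes were, at a median percentile of 83.2. None was variable, where 1.32% of all genes were. ELN, elastin, averaged 6.28 ± 0.08 with a range of 0.17. COL6A1, DCN, a collagen-binding proteoglycan, and COL3A1 averaged 5.56 ± 0.23, 5.24 ± 0.11 and 4.78 ± 0.22. POSTN, a matrix protein of growing tissue, spread most, at 1.11, 1.07, 2.77 and 1.85. COL1A2 read 3.48, 2.87, 4.19 and 3.42, in the same order of calves as the brightest probe of COL1A1. All 11 smooth muscle and pericyte genes were detected, at a median percentile of 88.8. ACTA2, the smooth muscle actin, averaged 5.52 ± 0.29, MYLK, the kinase that starts contraction, 4.45 ± 0.07, and DES, desmin, 4.03 ± 0.12. LMOD1 was the widest at 2.21, 0.83, 1.69 and 2.04, with calf 2 lowest.

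All 12 macrophage genes were detected, where 86.9% of all genes were, at a median percentile of 82.5. APOE averaged 6.87 ± 0.10, C1QA and C1QB, chains of the complement starter C1q, averaged 6.74 ± 0.23 and 6.34 ± 0.29, and CSF1R, the receptor for their growth factor, averaged 3.74 ± 0.26. FABP4, a fatty acid carrier of alveolar macrophages and adipocytes, was the only variable member, where 1.32% of all genes were variable. It read 0.30, -2.71, 0.34 and -1.72, with calves 1 and 3 above calves 2 and 4. PPARG, a regulator of the alveolar macrophage programme, read -0.81, -0.65, -0.30 and -0.66, and PLIN1 and LPL, of fat cells, averaged -4.40 ± 0.21 and 0.73 ± 0.48. LEP was well above background in none of the 4 calves.

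Leukocytes of the blood were measured too. All 13 neutrophil markers were detected, from S100A12, a calgranulin (4.61 ± 0.37), to MPO, the granule peroxidase (-5.10 ± 0.87). T and NK cell markers were detected in 11 of 13 cases, with GNLY, a cytolytic granule protein, brightest at 4.02 ± 0.69, CD3D at 2.85 ± 0.06 and CD4 at 2.81 ± 0.10. The probes of CD3D disagreed. Its other probe read -4.31, -3.13, -4.39 and -4.68, a range of 1.55 against 0.16 for the brightest. All 7 B and plasma cell genes were detected, and XBP1, which secretory cells of many kinds express, averaged 4.61 ± 0.24. MS4A1, the B cell antigen CD20, averaged -5.53 ± 0.61. Red cell genes were detected in 8 of 11 cases. HBA and HBG, globin chains, averaged 4.52 ± 0.79 and 3.44 ± 1.04, and AHSP, the chaperone of alpha globin, averaged -2.11 ± 0.09.

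**Figure D1:**
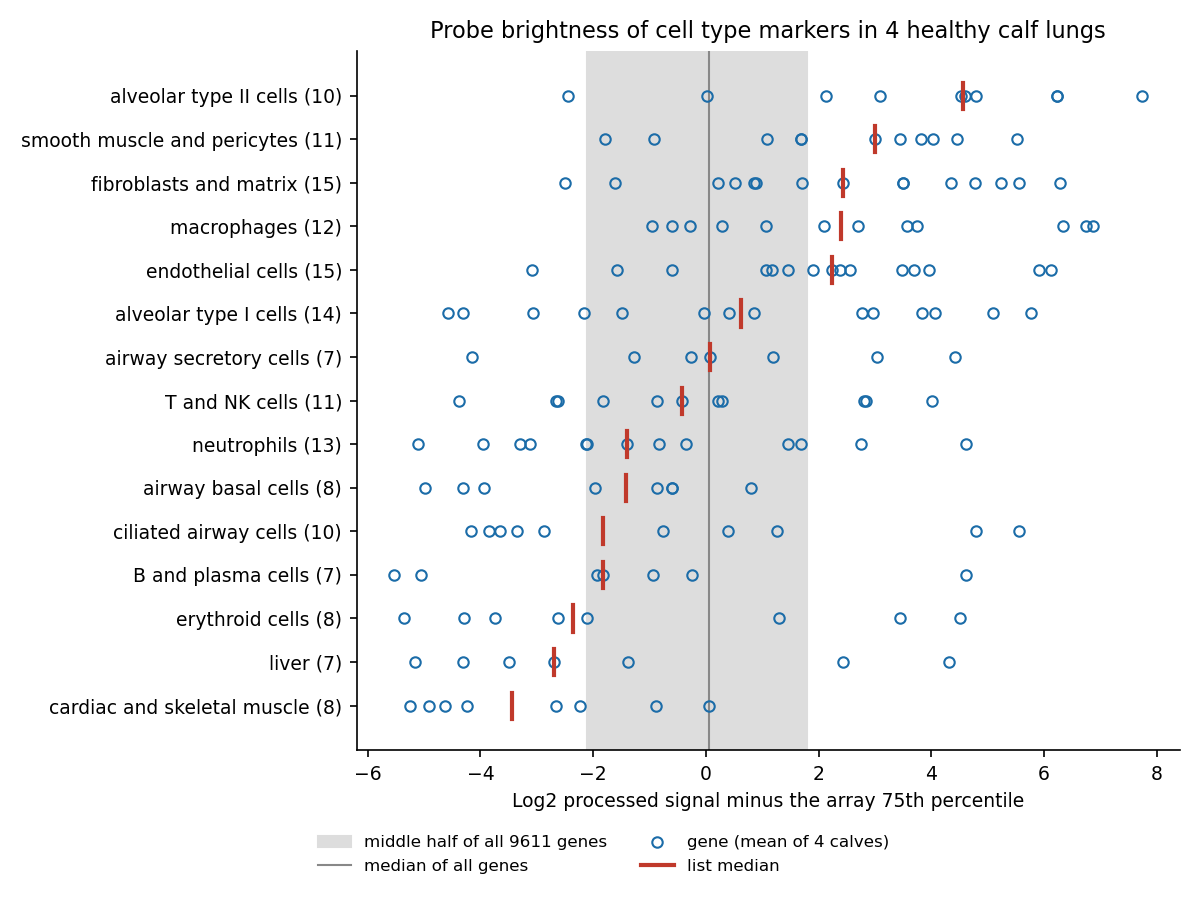
Each open circle is the mean level of 1 detected gene over the 4 calves, on a log2 scale relative to the array's 75th percentile, grouped by cell type list with the number of detected genes in brackets; red bars are list medians and grey marks the middle of all 9611 genes. Of the 15 lists plotted, those with at least 7 detected genes, type II cell genes sit furthest right, with a median of 4.56, and cardiac and skeletal muscle genes furthest left, with a median of -3.45.

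Lists for tissues other than lung were mostly dim. Cardiac and skeletal muscle genes were detected in 8 of 11 cases, at a median percentile of 14.7, and the defining markers NPPA, MYL2 and MYH2 were well above background on 0 arrays. Cartilage genes were detected in 4 of 5 cases, at a median of -4.56, the 7.50th percentile, which was dimmer than the muscle genes. Liver genes were detected in 7 of 11 cases, at a median percentile of 20.1. ALB, FGA and FGB, for albumin and fibrinogen chains, were each well above background in calves 1, 2 and 4 and not in calf 3. TF, transferrin, was bright at 4.32 ± 0.24. APOA1, a lipoprotein protein, read 1.44, 2.75, 2.61 and 2.93. Of 6 stomach genes, 4 were detected. CYM, the milk-clotting protease chymosin of the calf abomasum, stood out of that list. It read 1.90, 2.91, 2.92 and 4.27, at the 88.7th percentile. Its other 2 probes gave the same order at the ends, with calf 1 lowest and calf 4 highest (0.67, 1.62, 1.65 and 3.04, and -1.64, -0.78, -0.44 and 0.95). PGA5, a pepsinogen, read -1.45, -2.31, -1.50 and -2.00, so it did not share that order. GAST, gastrin, was well above background in 3 calves and GKN1 in 1. Whether stomach or liver RNA contributed was not tested.

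The brightest probes belonged to surfactant, cytoskeleton, iron storage and translation. After SFTPC came TMSB4X, an actin-sequestering peptide (7.56 ± 0.09), FTH1, the ferritin heavy chain (7.44), ACTG1, a cytoplasmic actin (7.39), and RPS3, a ribosomal protein (7.36). Ribosomal protein genes were 33 of the 50 brightest and 58 of the 100 brightest, where they were 0.905% of all 9611. BOLA, a class I histocompatibility gene, ranked 8th, at 7.08, 7.51, 7.13 and 7.17, with calf 2 highest. IGF2, the fetal growth factor, ranked 12th. It read 6.99, 7.14, 7.03 and 6.99, and 11 of its probes were well above background in every calf.

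Genes of surfactant lipid synthesis and lung fluid transport had median ranges of 0.35 and 0.41, against 0.34 for all genes. Of 15 matched surfactant lipid genes, 14 were detected and none was variable, where 1.32% of all genes were. SCD, a fatty acid desaturase, averaged 4.23 ± 0.32, AGPAT2, which builds phosphatidic acid, 3.58 ± 0.15, and PCYT1A, the rate-limiting enzyme of phosphatidylcholine synthesis, -2.13 ± 0.22. PCYT1B was well above background on 0 arrays. All 12 lung fluid transport genes were detected, at a median percentile of 79.4, and 3 of them had a range of 1 or more, against 10.1% of all genes. Calf 3 was lowest for 10 of the 12, where 31.6% of all genes were lowest, and the list mean there was -0.42 from the other calves. AQP1, the water channel of endothelium, averaged 6.32 ± 0.16, and SCNN1A, the alpha chain of the epithelial sodium channel, 3.44 ± 0.14. The gamma chain SCNN1G read -1.78, -0.90, -2.01 and -1.27 and the beta chain SCNN1B 1.00, 1.46, 0.37 and 1.39, both with calf 2 highest and calf 3 lowest. NKX2-1, the lung lineage transcription factor, averaged 2.01 ± 0.18, and CEBPA, which drives type II cell maturation, 3.77 ± 0.17. SOX2, of the conducting airway, was lowest in calf 3, at -1.15 against -0.06, 0.03 and 0.38.

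Insulin-like growth factor and imprinted genes lay at a median percentile of 78.1. All 14 were detected, where 86.9% of all genes were, and none was variable, where 1.32% of all genes were. H19, the imprinted RNA beside IGF2, averaged 3.17 ± 0.17, DLK1 3.56 ± 0.13, IGF2R, the clearance receptor, 3.68 ± 0.33, and IGFBP6, a binding protein that prefers IGF2, 4.01 ± 0.03. The median range of the list was 0.32. MEST and NNAT spread more, with ranges of 1.18 and 1.54. Of the 11 elastic fibre genes, MFAP2, a microfibril protein, averaged 2.94 ± 0.19, LOX, the cross-linking enzyme, 0.90 ± 0.14, and FBN1, fibrillin, -2.49 ± 0.37. Glucocorticoid target genes lay at a median percentile of 90.4. CEBPD averaged 5.11 ± 0.05, and FKBP5, a receptor co-chaperone, read 3.69, 3.82, 3.70 and 4.25.

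Spread between calves was small for most genes. The median range over 9611 genes was 0.34 and the median SD 0.15. The 44 probes spotted 4 times on each array show the spread between spots of the same array only. Each calf had 1 array, so differences in labelling and hybridisation cannot be told apart from differences between calves. Their median range over spots of 1 array was 0.12, and their median range over calves was 0.32. In all, 973 genes (10.1%) had a range of 1 or more and 127 (1.32%) a range of 2 or more. Variable genes were mostly dim, since 81 of the 127 lay among the dimmest 2403 genes and 10 among the brightest 2402. Without calf 3, 68 genes reached a range of 2, and 89 did so without calf 1, without calf 2 or without calf 4. Fewer calves give narrower ranges by construction. Just inside the limit lay BPI with 2.01, and just outside it lay LOC614871 with 2.00. Among the 14070 kept probes without a symbol, 179 (1.27%) were as variable.

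**Figure D2:**
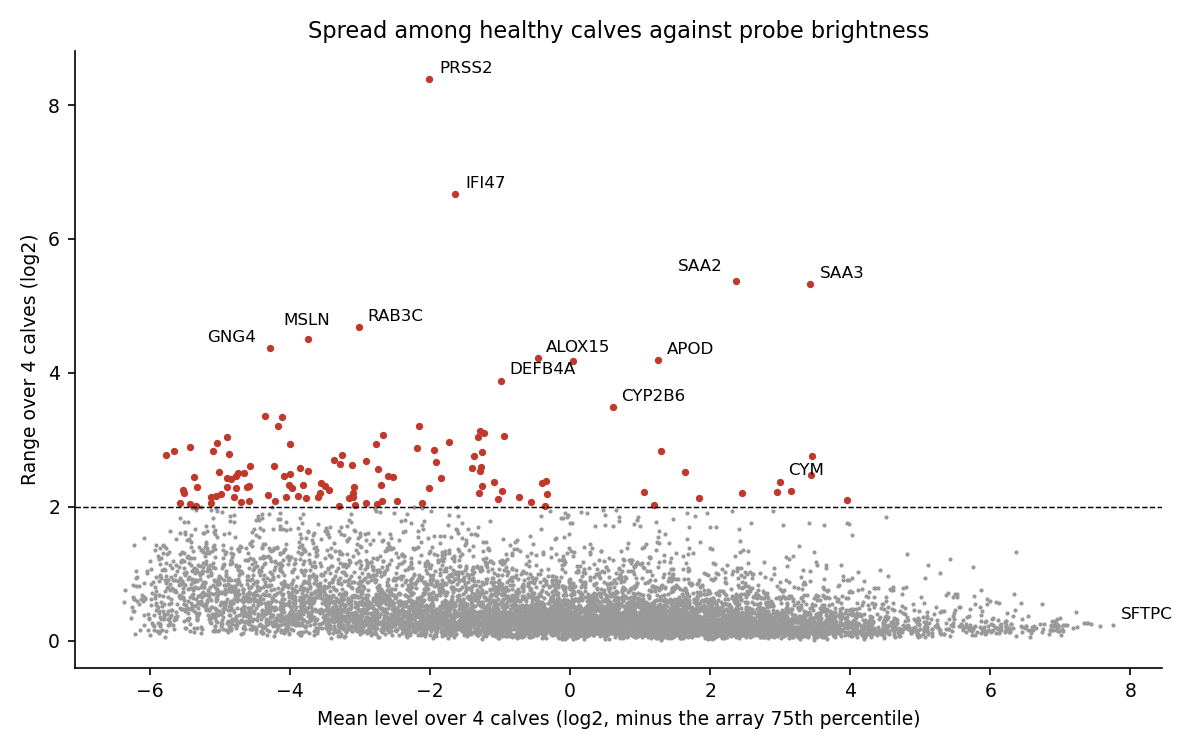
Each dot is 1 of the 9611 genes, with its mean level over 4 calves on the horizontal axis (log2, relative to the array's 75th percentile) and its range on the vertical axis (log2); red dots above the dashed line are the 127 variable genes. PRSS2 has the largest range at 8.39, and SFTPC, the brightest, has a range of 0.23.

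PRSS2, a trypsinogen best known from pancreas, had the widest range of all. It read 2.35 and 1.42 in calves 1 and 2 but -6.05 and -5.76 in calves 3 and 4, a 336-fold difference between the ends. IFI47, an interferon-inducible GTPase, had the same division, at 1.67 and 1.31 against -5.00 and -4.53. RAB3C, a GTPase of secretory vesicles, divided the calves differently, at -0.75 and -0.70 in calves 2 and 3 against -5.18 and -5.39 in calves 1 and 4. PRSS2 and IFI47 had 1 probe each, so these folds rest on the signal of a single probe. Whether the calves differ in sequence under it was not tested. The arrays of calves 1 and 2 also held spots of very high local background. With such spots left out of a normexp background correction, the range of PRSS2 was 6.67 and the range of IFI47 was 5.47. Another RAB3C probe, well above background on 2 arrays, gave the same division (-9.15, -4.95, -4.65 and -8.61). In 15 of the 34174 kept probes the calves fell into pairs at least 2 apart, wider than the gap inside either pair. Calves 1 and 2 were the high pair in 4 of these, and every other pairing occurred in 1 to 3.

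Some genes were not well above background in every calf and so fell outside the rule. Of 618 genes measured on 1 to 3 arrays, 43 were at least 2 above the mean background bound of the other calves. The bound is the dimmest signal well above background on an array, or the probe's own value where that is higher. Bounds were averaged over the other calves and levels over the measured calves. Each fold thus compares means, and the fold against a single calf can be smaller. KLK12, a kallikrein protease, shared the division of PRSS2. It read 1.58 and 0.83 in calves 1 and 2 and was not well above background in calves 3 and 4, where the signal lay at -7.84 and -8.32, so it was at least 220-fold brighter in the first pair. This gene too had 1 probe, and a difference in sequence under it was not tested. SYT13, a synaptotagmin, was at least 24.7-fold brighter in calves 1 and 4 than in calves 2 and 3. OAS1X, an antiviral oligoadenylate synthetase, was measured in calf 1 only, at least 15.7-fold above the mean of the others. CALCR, the calcitonin receptor, was measured in calf 2 only, at least 12.2-fold above the mean of the others. These 4 genes and the others named here were chosen after their values were seen.

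The bright genes SAA3 and SAA2 spread widely. SAA3, a serum amyloid A made in inflamed epithelium, read 5.33, 3.71, 0.00074 and 4.66, and another of its probes read 4.91, 3.61, -0.06 and 3.88. SAA2 read 4.29, 2.64, -1.08 and 3.64. In both genes calf 3 lay far below the other calves, and without it the range of SAA3 was 1.62. Other acute phase genes were dimmer. ORM1, an acid glycoprotein at the 20.9th percentile, was also lowest in calf 3 (-4.19 against -2.29, -2.19 and -1.73), as was FGG, a fibrinogen chain at the 5.90th percentile (-6.41 against -4.27, -4.40 and -3.95). SERPINA3-3, a serine protease inhibitor, was well above background in calves 1, 2 and 4 alone. HP, haptoglobin, did not share this pattern. It read 0.35, -1.71, -0.99 and 0.15, with calf 2 lowest.

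Other variable genes were highest or lowest in a single calf. ALOX15, a lipoxygenase that makes lipid mediators, read -1.84, -1.88, 2.33 and -0.46, highest in calf 3. KIT, the stem cell factor receptor of mast and progenitor cells, was also highest there, at 0.55 against -2.00, -1.60 and -2.05, and GATA2, another mast cell gene, stayed within 0.14. CYP2B6, an oxidase of foreign compounds, read 1.24, 1.62, -1.87 and 1.45, lowest in calf 3. MSLN, the mesothelial surface protein mesothelin, read -4.50, -3.86, -5.55 and -1.05, highest in calf 4, while UPK3B, another mesothelial gene, stayed between -1.25 and -0.95. IGFLR1, a receptor of the tumour necrosis factor family, read 0.20 in calf 4 and between -3.01 and -2.82 elsewhere. CXCL9, a chemokine induced by interferon gamma, read -0.61 in calf 2 and between -3.54 and -3.43 elsewhere. APOD, a lipid carrier, read 3.74, 0.03, -0.45 and 1.72, highest in calf 1. NQO1, a quinone reductase, read -1.57, -3.22, -0.19 and -0.26, lowest in calf 2, and DEFB4A, a beta-defensin, was lowest there too, at -3.13 against -0.01, 0.76 and -1.55. SPIC, a transcription factor of red pulp and iron-handling macrophages, was lowest in calf 4, at -2.89 against -0.36, -0.65 and -1.25.

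**Figure D3:**
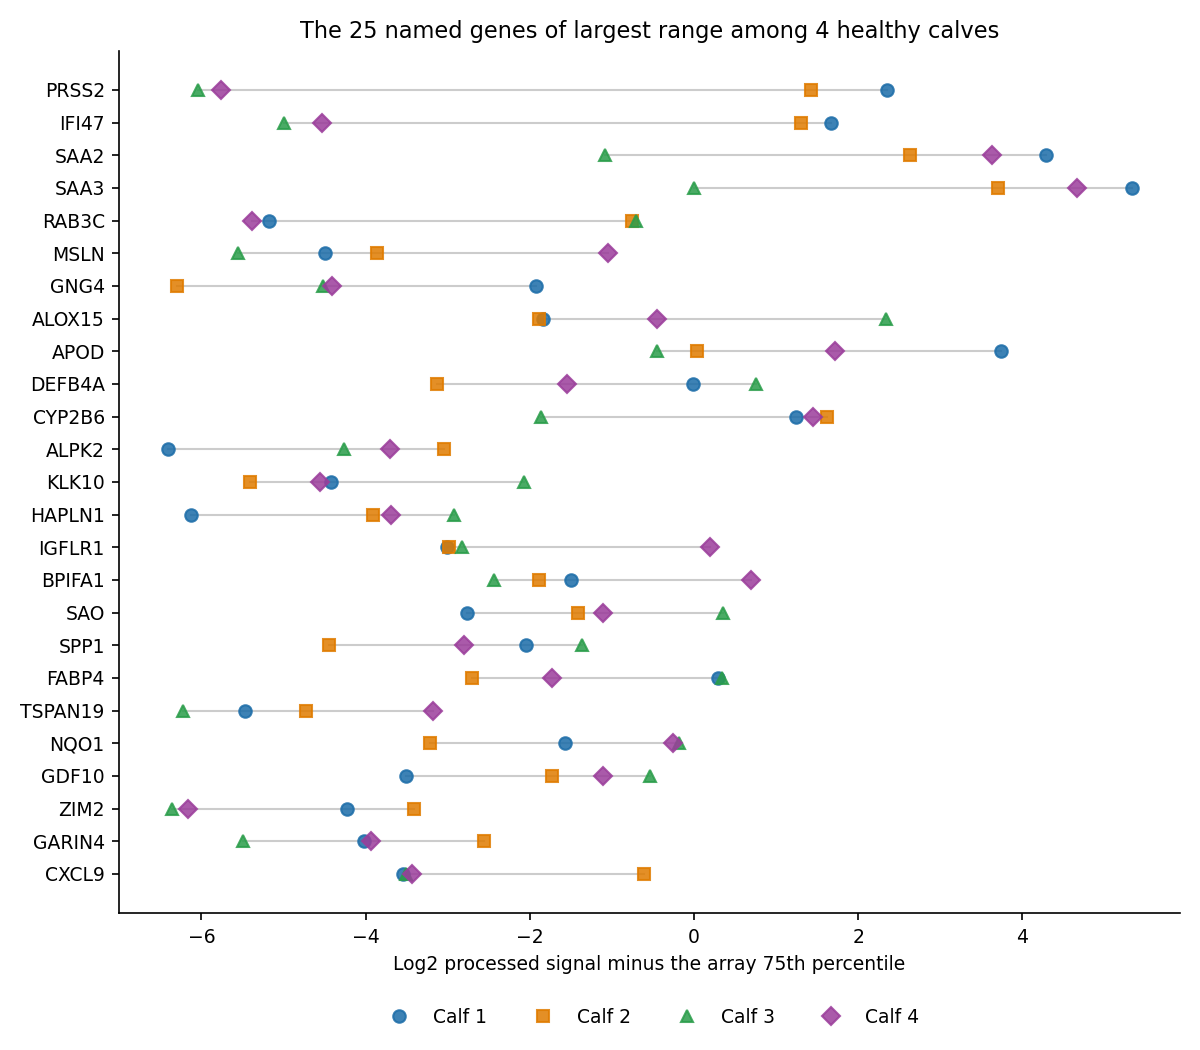
Levels in each calf (symbols) of the 25 named genes with the largest range, on a log2 scale relative to the array's 75th percentile; grey lines join the lowest and highest calf. PRSS2 and IFI47 fall into pairs of calves, whereas SAA2 and SAA3 are low in calf 3 alone.

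Other probes of the same genes were read as a measurement that the choice did not use. Of the 127 variable genes, 51 had another probe well above background in all calves. That probe had a range of 2 or more in 34 (66.7%), against 68 of 6116 genes (1.11%) with such a probe in all, and its median range was 2.37 against 0.35. The same calves were highest and lowest in 41 (80.4%), against 43.4% of all genes with such a probe. For SLC28A1, a nucleoside carrier, the probes disagreed. Its brightest probe read -4.75, -2.84, -2.72 and -2.12, and the other had a range of 0.18. The other probe had a range of 1 or more in 46 of the 51. Beside SLC28A1, it fell short in NR1D1, a clock gene (0.51 against 2.13 for the brightest probe), TRPC4, a cation channel (0.66 against 2.21), ENTPD8, a nucleotidase (0.81 against 2.07), and PTGS1, a cyclooxygenase (1.00 against 2.14). These 5 are uncertain. Variable genes outside the 51 had no second probe well above background in all calves, so their ranges were not checked in this way.

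Some gene lists stood apart in single calves. A list was set apart in a calf where its mean there lay 0.5 or more from the mean of the other 3 calves. That held in 16 of 168 pairs of list and calf (9.52%), over 42 lists with at least 5 detected genes. The 16 pairs came from 10 lists. Each is given below with the settings that took it under the limit: the background correction named normexp, the same without spots of outlying local background, the second brightest probe of each gene, the median of the members in place of the mean, or a calf left out. Lists of the alveolar epithelium, endothelium, smooth muscle, macrophages, ribosome and respiratory chain were not among these 10. Just under the limit lay mucosal host defence genes in calf 4 (0.497) and interferon response genes in calf 1 (-0.495). Fibroblast and matrix genes in calf 3 (0.492) lay there too, with 12 of 15 members highest, against 24.8% of all genes.

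Cell cycle genes were highest in calf 3 and lowest in calf 4. All 16 detected members were highest in calf 3, where 24.8% of all genes were, and their mean there was 1.06 above the others, although with normexp the difference turned to -0.13. In calf 4, 12 of 16 were lowest, against 17.3% of all genes, and the mean was -0.82 from the others. That fell to -0.26 with the second brightest probe and -0.47 with normexp without outlying spots, both under the limit, and was -1.35 with normexp. UBE2C, which marks mitotic regulators for destruction, read -2.99, -3.44, -1.58 and -3.63. AURKB, a mitotic kinase, read -4.84, -4.92, -3.65 and -5.79. MCM5, part of the replicative helicase, read 1.49, 1.69, 2.35 and 1.77. PLK1 and PCNA were highest in calf 3 by less, with ranges of 0.24 and 0.38. The list lay at a median percentile of 15.0.

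Red cell genes were highest in calf 3 as well, by 1.02, with 5 of 8 members highest there, against 24.8% of all genes. With normexp the difference was 0.23 and with the median of the members 0.38, both under the limit. HBB, the adult beta globin, read 1.50, -0.20, 2.63 and 1.28. HBA read 4.53, 3.75, 5.60 and 4.20, HBG 3.41, 2.38, 4.86 and 3.13, and ALAS2, the first enzyme of heme synthesis in red cells, -3.92, -4.56, -2.02 and -4.49. Calf 2 was the lowest for 7 of the 8, where 22.1% of all genes were lowest, and its mean was -0.94 from the others, which fell to -0.095 with normexp and -0.45 with the second brightest probe. AHSP and SLC4A1, a membrane carrier of red cells, stayed within 0.22 and 0.54. The amount of blood left in each lung is unstated, and its part in these values was not tested. The summed level of the 8 members lay between -14.5 and -2.75 over the calves. Globin, serum amyloid A, defensin and cathelicidin genes have close relatives, so a probe may read more than 1 of them.

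Cholesterol synthesis genes divided calf 2 from calf 3. In calf 2, 12 of 13 were lowest, against 22.1% of all genes, and the mean was -0.66 from the others. In calf 3, 12 of 13 were highest, against 24.8% of all genes, and the mean was 0.59 above. With normexp these became -0.46 and 0.40, both under the limit. SQLE, squalene epoxidase, read 3.03, 2.50, 3.62 and 3.28, and IDI1, an isomerase of the pathway, read 0.33, 0.19, 1.26 and 1.01. FDPS, which makes farnesyl diphosphate, read 2.58, 2.20, 3.21 and 2.89. None of the 13 reached a range of 2. Without calf 2, calf 3 was 0.41 above the others, under the limit.

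Ciliated cell genes were lowest in calf 3. Its mean was -0.81 from the others, 8 of 10 members were lowest there, against 31.6% of all genes, and 10 of 10 lay below the mean of the other calves. RSPH1, of the ciliary radial spoke, read -2.57, -2.83, -3.85 and -2.25, TEKT1, of the microtubule doublets, -3.35, -3.38, -4.64 and -3.26, and SPAG6, of the central apparatus, -0.47, -0.61, -1.66 and -0.29. Secretory cell genes were also low in calf 3, by -0.74, with 5 of 7 lowest. That became -0.44 without calf 4, -0.42 with the second brightest probe and -0.34 with the median of the members, all under the limit. They were high in calf 4, by 1.04, with 5 of 7 highest, against 20.4% of all genes, and by 0.66 with the median of the members. The airway share of each tissue piece was not measured, and its part in these values was not tested.

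**Figure D4:**
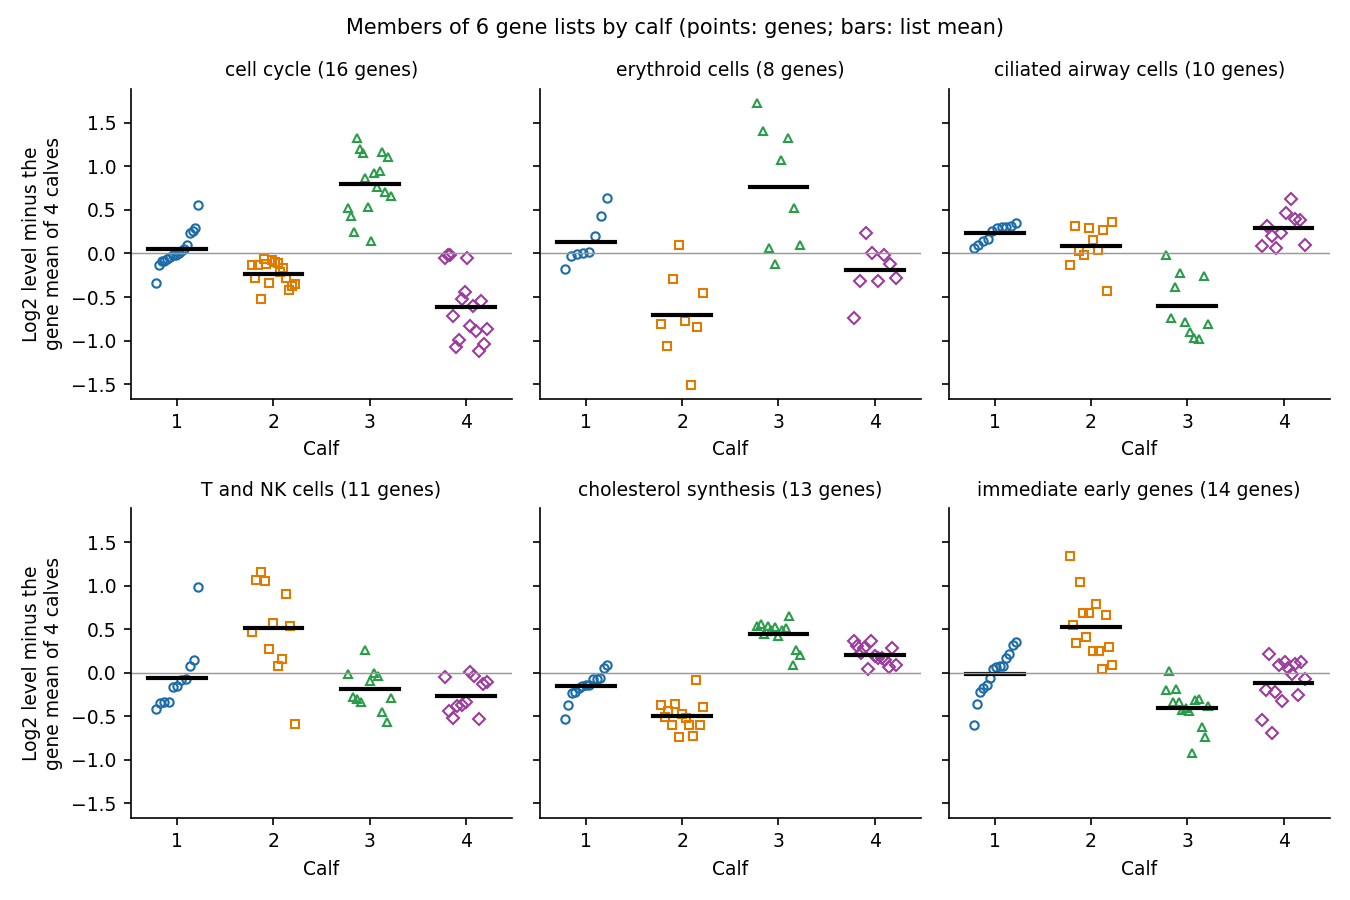
Each point is 1 gene of a list in 1 calf, as its log2 level minus the gene's mean over the 4 calves, and black bars are list means. Cell cycle genes lie highest in calf 3 under the plotted setting (a difference of 1.06, which turned to -0.13 with normexp background correction), ciliated genes lowest in calf 3, T and NK genes highest in calf 2, and cholesterol synthesis genes lowest in calf 2.

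T and NK cell genes were highest in calf 2, where 10 of 11 members were highest, against 31.3% of all genes, and the mean was 0.69 above the others (1.30 with the second brightest probe and 1.36 with the median of the members). CD3E, a chain of the T cell receptor complex, read -0.75, 0.74, -0.71 and -0.93, and LCK, its kinase, -1.19, 0.19, -1.19 and -1.24. GNLY was the exception, highest in calf 1 at 5.01 and lowest in calf 2 at 3.43. CD7, CD27 and CXCR6, lymphocyte surface proteins outside the list, were highest in calf 2 too. CD7 read -1.56, 0.65, -1.72 and -1.70. B and plasma cell genes were 0.85 higher in calf 2, with 4 of 7 members highest, or 1.49 higher with the median of the members. JCHAIN, which joins secreted IgA and IgM, read -3.06, -0.22, -1.95 and -2.52.

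Immediate early genes, which respond within minutes when a cell is stimulated, were highest in calf 2 for 11 of 14 members, against 31.3% of all genes, and lowest in calf 3 for 11 of 14, against 31.6%. The list means were 0.71 above and -0.53 from the others. FOS read 1.71, 3.65, 2.11 and 1.76, FOSB 3.45, 4.67, 3.44 and 2.94, and ATF3 2.16, 2.87, 1.17 and 2.14. Calf 3 was -0.33 from the others without calf 2, -0.32 with normexp and -0.49 with the second brightest probe, all under the limit. The time from death to sampling of each calf is unstated, and its part in these values was not tested.

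Neutrophil genes were highest in calf 4 for 10 of 13 members, against 20.4% of all genes, with a mean 0.64 above the others, and were -0.60 from the others in calf 3. Without calf 3, calf 4 was 0.49 above the others, and without calf 4, calf 3 was -0.44 from them, both under the limit. With normexp the difference was 0.063 in calf 4 and -0.94 in calf 3, and with normexp without outlying spots it was -0.41 in calf 3. With the median of the members it was 1.16 in calf 4 and -0.97 in calf 3. The members with the widest ranges did not follow calf 4 alone. CATHL1, a cathelicidin of neutrophil granules, read -0.45, -2.58, -2.54 and -0.01, so calves 1 and 4 were alike and above calves 2 and 3. CATHL3 (-2.45, -4.53, -4.29 and -1.89), CATHL4 (-0.18, -2.74, -2.18 and 0.08) and PGLYRP1, a peptidoglycan-binding granule protein (-1.89, -4.43, -3.61 and -1.75), had the same division, whereas CATHL5 was highest in calf 2 (1.40, 2.07, 1.06 and 1.33). S100A8 and S100A9 were highest in calf 4, at 3.19 and 2.04.

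Interferon response genes were 0.73 higher in calf 3, with 8 of 12 members highest there, against 24.8% of all genes. With normexp the difference was 0.056, under the limit. ISG15, a ubiquitin-like modifier, read -1.28, -1.27, 1.08 and -0.14, RSAD2, an antiviral enzyme, -3.11, -2.60, -1.30 and -2.39, and MX1, an antiviral GTPase, -0.43, -0.28, 0.88 and 0.07. IFI6 differed from these and was highest in calf 4, at 2.05, 2.52, 2.97 and 4.27. CXCL10 was highest in calves 2 and 3, at -0.64 and -0.92 against -2.51 and -2.33. IFI47 and CXCL9, described above, were highest in calf 1 and calf 2 respectively.

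**Figure D5:**
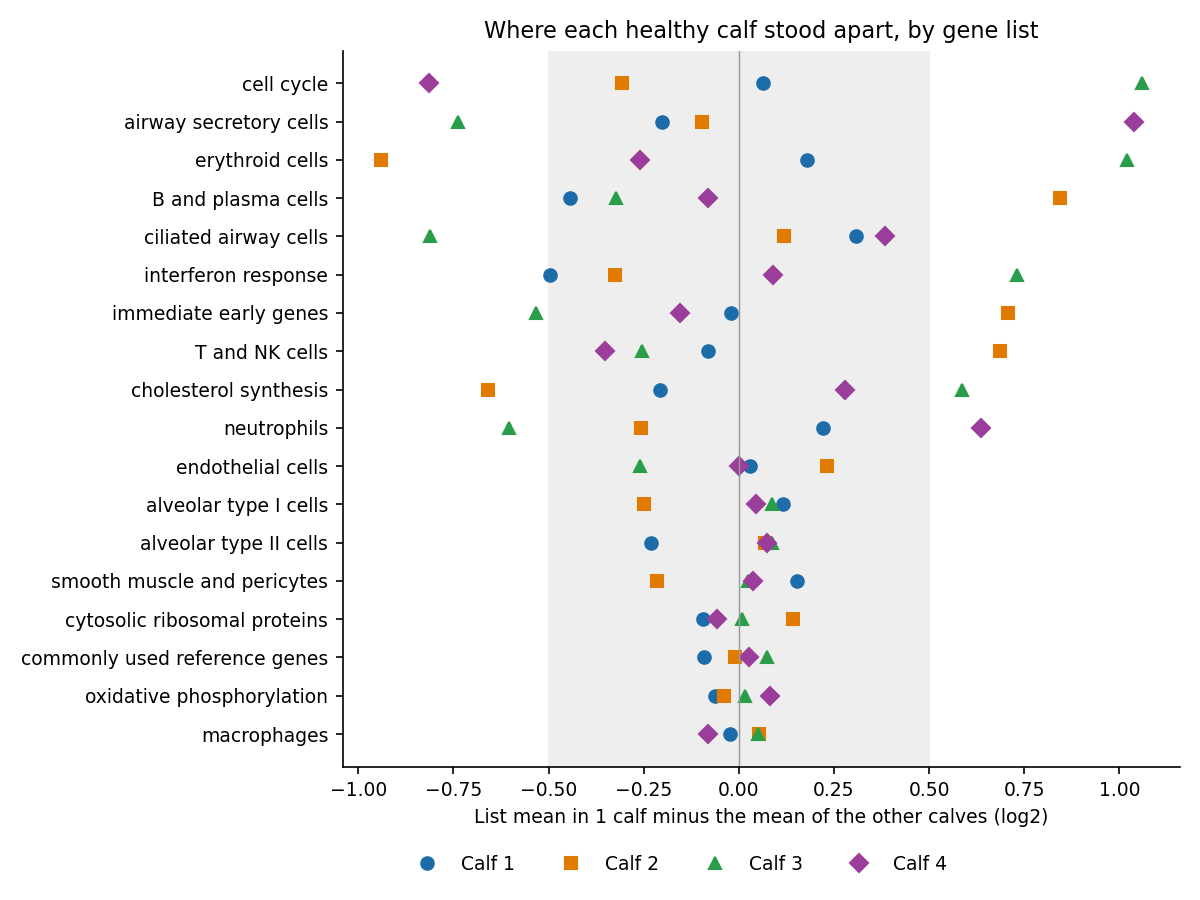
For each list and calf the symbol gives the list mean in that calf minus the mean of the other calves, in log2 units, and the grey band marks differences under 0.5. The 10 upper lists leave the band in at least 1 calf, with cell cycle genes widest at 1.06 in calf 3 (-0.13 with normexp background correction), and the 8 lower lists stay within it in all 4 calves.

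Single calves differed in how often they stood apart. The highest or lowest calf was 1 or more from its nearest neighbour in 261 genes (2.72%). Calf 2 was the high one in 54 genes (0.562%) and the low one in 23 (0.239%). Calf 3 was high in 38 (0.395%) and low in 50 (0.52%), and calf 1 was high in 22 (0.229%) and low in 53 (0.551%). Calf 4 was high in 22 (0.229%) and low in 12 (0.125%), the fewest in all. That ranking depends on the background correction. With normexp, calf 4 was high in 8 and low in 41, against 2 and 5 for calf 1, 9 and 3 for calf 2 and 7 and 57 for calf 3. The number of genes that differed by 1 or more between a pair of calves ran from 256, between calves 1 and 4, to 450, between calves 2 and 3.

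The steadiest named genes among the brightest 2402 were chosen for their small range. Their ranges lay under the median range of 0.12 between repeat spots of 1 array, so they do not order genes by steadiness. COA3, an assembly factor of cytochrome oxidase, had a range of 0.013 around 3.48, HNRNPD, an RNA-binding protein, 0.020 around 3.66, and YWHAQ, a 14-3-3 protein, 0.037 around 4.49. The second brightest probe had a range of 0.14 for COA3 and 0.16 for HNRNPD. NEUROG2, a neuronal transcription factor, had a range of 0.018 on its brightest probe and 1.03 on another. Among 14 commonly used reference genes the median range was 0.21. SDHA and TBP had ranges of 0.065 and 0.10, ACTB 0.16 and GAPDH 0.39. HPRT1 and B2M spread more than most genes, with ranges of 0.60 and 0.56. The 22 respiratory chain genes had a median range of 0.18, and the 29 ribosomal protein genes, of which RPL30 was the dimmest at the 98.0th percentile, had a median range of 0.20.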

How the data were processed

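The lungs of 4 healthy calves were profiled on Agilent bovine arrays of 1 colour. Per the file headers, Agilent Feature Extraction subtracted the background and wrote a processed intensity per spot, with no step between arrays. The submitters' processing notes name version 10.7. The authors' deposited value table holds log2 values per probe; its columns correlated with the processed signal at 0.99948 or more, their medians were all 7.89, and the step that aligned them is unstated.

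From the deposited intensity, each array was set to log2 minus its 75th percentile. Control spots and outlier flags (3 to 21 spots per array) were left out, and repeat spots were averaged. Probes were named by transcript accession through a RefSeq table of the assembly ARS-UCD2.0: of 43653 probes, 23492 had 1 symbol and 20161 none. No coordinates or sequences were used. Local background reached 55446 intensity units on the array of calf 1, 33504 on calf 2, 45.0 on calf 3 and 44.5 on calf 4. The number of arrays limits precision to the spread of 4 animals.

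No test between groups was run, because 1 group has no contrast. The only criterion with a chance level was an outlier rule, a gap above 0.829 of the range, used for the flags below. Named genes were the tissue markers, the 25 brightest, the 25 of largest range, the 10 of smallest range among bright genes, up to 5 of each list with its widest member, 5 per calf and direction, and reference genes. Some further list members and other genes were named after their values were seen. Members and lists were chosen with earlier results of these data known. On simulated shifts of 1, 2, 3 and 4, the range rule called 0, 38, 50 and 50 of 50 genes. The simulated noise of a gene was its SD between calves with a cap. The noisiest genes were thus simulated with less noise than the data hold. Alternatives covered normalization, background correction, probe choice, filters and each calf left out. Python 3.11.15, R 4.3.3 and limma 3.58.1 were used.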

Additional observations from a re-analysis of the deposited data

Results flagged for a closer look

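For 16 of the 169 genes named in the report, and for 1 of 42 lists, a single calf lay so far from the rest that its gap took up more of the range than chance allows in about 19 of 20 groups of 4. Chance alone would give about 1 in 20, and genes were often named for such a gap. The rule was not run over all 9611 genes, so no share of them can be set beside the 16. For lists, 1 of 42 is fewer than chance alone would give.

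Calf 2 was the high calf for CXCL9 (gap 0.963 of the range), LCK (0.963), CD7 (0.933), CD27 (0.912), CD3E (0.866), CD4 (0.849) and CXCR6 (0.848). Calf 3 was the low calf for TEKT1 (0.911), CEBPD (0.906) and CYP2B6 (0.891), and the high calf for SCD (0.91). Calf 4 was the high calf for IGFLR1 (0.943), PIGR (0.903), AQP5 (0.865) and S100A8 (0.841). Calf 1 was the low calf for SFTA2 (0.891).

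The list of type II cell genes had a list mean of 3.52 in calf 1 against 3.74, 3.76 and 3.75, a gap of 0.945 of the range, and 7 of its 10 genes were lowest in calf 1, where 29% of all genes were. The difference of -0.23 from the other calves was under the limit of 0.5.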

How the results depend on the processing

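No paired analysis was possible because only 1 group was used. Apart from the outlier flags above, no result comes from a test. Quantile normalization, median centring and the deposited table kept every count of genes and lists within 1.5 times. With normexp background correction as planned, 1362 genes were variable, only 7 of the 25 widest were shared, the median range was 0.56 and 30 lists stood apart; calf 1 was high in 2 and low in 5 genes, calf 2 in 9 and 3, calf 3 high in 7, and calf 4 in 8 and 41. The cell cycle difference of calf 3 became -0.13 there, the one reversal among 16 list differences. That fit left medians of -1.04 and -1.33 on calves 1 and 2 and -2.37 and -2.36 on calves 3 and 4. Added after seeing the data, normexp without spots of outlying background gave 47 variable genes, 8 of the 25 brightest shared, and calves 1 to 3 high in 10, 29 and 14 and low in 21, 12 and 16 genes, with calf 4 high in 9. Averaging probes shared 14 of the 25 brightest. The other probe of each gene gave 68 variable genes of 6116, 8 of the 25 widest shared, calves 2, 3 and 4 high in 31, 21 and 13, and calves 1 to 4 low in 23, 10, 27 and 6. Allowing 3 of 4 arrays shared 14 of the 25 widest and put calf 4 low in 21 genes. Limits of 1 and 3 gave 973 and 22 variable genes, bright genes alone 16, and probes without a symbol, added later, 306. List medians, also added later, set 33 pairs apart. Leaving out 1 calf gave 68 (without calf 3) to 89 variable genes, 14 to 21 of the widest shared and 11 to 22 list pairs. Calf 1 was then high in 36 to 56 genes and low in 72 to 83, calf 2 in 76 to 89 and 41 to 64, calf 3 in 52 to 77 and 76 to 92, and calf 4 in 43 to 51 and 21 to 30. Of 3829 ranges of named genes across settings, 658 moved by more than the spread between calves. Except where a construction shows it (fewer calves, genes or probes), the cause was not tested. Dim probes limit the rest: the lowest signal well above background lay between -6.91 and -6.41.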

Other observations

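All 16 complement and coagulation genes were measured in every calf, where 86.9% of all genes were, at a median percentile of 82.5. CFD, the protease that starts the alternative pathway, read 5.67, 6.35, 5.26 and 5.71, and THBD, the endothelial anticoagulant thrombomodulin, read 5.36, 5.51, 4.57 and 4.85, both with calf 2 highest and calf 3 lowest. PROS1, protein S, spread most of the list, at -0.12, 1.20, 0.58 and -0.72. Among the 10 histocompatibility genes, JSP.1, of class I, read 6.10, 7.13, 5.81 and 6.43, and BOLA-DRA, of class II, read 4.14, 5.10, 4.69 and 4.24. Both were highest in calf 2. Another JSP.1 probe was also highest there, but it read -3.06, 1.91, 0.67 and 1.46, with calf 1 lowest. Its range was 4.96 against 1.32 for the brightest probe, so the spread of JSP.1 depends on the probe.

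Protective enzymes were bright. HMOX1, which breaks down heme, read 5.13, 5.94, 4.92 and 5.12, PRDX6, a lung peroxidase and phospholipase, averaged 5.56 ± 0.22, and CYP4B1, an oxidase of the airway, read 5.73, 5.83, 5.14 and 5.29. AOX1, aldehyde oxidase, stayed within 0.13 around 4.75. Of 18 matched inflammation genes, 17 were detected, where 86.9% of all genes were. Of the 17, 3 were variable, where 1.32% of all genes were: SAA3, TNF and CCL20. TNF and CCL20 were dim, at the 24.9th and 2.86th percentiles. Another TNF probe had a range of 1.45, under the limit of 2. TNF read -3.55, -1.63, -1.49 and -1.80, lowest in calf 1, and CCL20, a chemokine of mucosal epithelium, read -6.13, -5.79, -5.53 and -3.83, highest in calf 4. CCL2, a monocyte attractant, read 4.22, 3.25, 3.72 and 2.47, in an order that no list mean shared.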
